A study of Mus musculus with 48 samples.

Results

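A set of 7 genes made mainly by fat cells was followed in gastrocnemius, a hindlimb muscle, of 48 mice. The genes were Lep, Adipoq, Retn, Cfd, Fabp4, Plin1 and Cidec, chosen by name. Their symbols were matched to the Ensembl identifiers of the deposited count table, and all 7 were found among its 14125 genes and passed the filter on low counts. The mice were male C57BL6J, and no genetic change is named in the labels. Cort_ATGLi (n = 14) received 100 ug/ml corticosterone, the main glucocorticoid hormone of mice, in the drinking water for 2 weeks, and food with 571 mg/kg atglistatin milled into Teklad 8640. Cort_CON (n = 14) received the same corticosterone water with control food. EtOH_ATGLi (n = 10) received vehicle water (1% ethanol) with the atglistatin food, and EtOH_CON (n = 10) vehicle water with control food. Atglistatin inhibits adipose triglyceride lipase (ATGL), which makes the initial cut in stored triglyceride. The labels call 9 Cort_CON mice diabetic and the other 5 nondiabetic, and all mice of the other groups nondiabetic, and they give each sample a fed glucose and an insulin value with no unit. Each library was taken as 1 mouse, which the labels do not state.

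White fat cells store triglyceride in 1 large droplet coated by perilipin 1 (Plin1) and enlarged by the droplet fusion protein CIDEC, and they carry fatty acids on the binding protein FABP4. They secrete leptin (Lep), which reports fat stores to the brain, adiponectin (Adipoq), which raises insulin sensitivity, resistin (Retn), which impairs it in rodents, and the complement protease adipsin (Cfd). Fat cells lie between muscle fibres and around the muscle, and both glucocorticoids and insulin are known to raise leptin expression in fat cells. Fabp4 is also made by capillary endothelial cells and macrophages.

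The RefSeq promoters (GRCm38.p6) of Lep, Cfd and Adipoq are shown because Lep and Cfd carried the differences between groups and Adipoq is the gene they are set against further on. Each line holds the 250 bases before the gene's start on its own strand, at chr6:29059971-29060220 for Lep, chr10:79890603-79890852 for Cfd and chr16:23146286-23146535 for Adipoq, all on the + strand. Capitals mark matches to the motifs searched.
Lep: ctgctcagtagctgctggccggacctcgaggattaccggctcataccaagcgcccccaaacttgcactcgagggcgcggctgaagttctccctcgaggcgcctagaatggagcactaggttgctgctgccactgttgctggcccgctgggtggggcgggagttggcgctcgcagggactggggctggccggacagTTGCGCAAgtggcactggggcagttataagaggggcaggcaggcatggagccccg
Cfd: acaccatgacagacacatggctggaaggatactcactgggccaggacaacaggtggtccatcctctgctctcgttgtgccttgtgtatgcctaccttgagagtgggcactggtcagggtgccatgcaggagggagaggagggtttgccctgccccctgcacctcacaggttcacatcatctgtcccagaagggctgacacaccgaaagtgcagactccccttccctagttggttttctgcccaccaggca
Adipoq: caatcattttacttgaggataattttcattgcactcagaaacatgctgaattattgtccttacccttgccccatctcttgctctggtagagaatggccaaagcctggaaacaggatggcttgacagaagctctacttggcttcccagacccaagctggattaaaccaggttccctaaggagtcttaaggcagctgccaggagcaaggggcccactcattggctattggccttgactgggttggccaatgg
Both strands were searched for the TATA box (spelled TATAAA), for 1 arm of a glucocorticoid response element (spelled AGAACA) and for the full element, a pair of such arms in opposite directions, 3 bases apart, so that each match also counts as a single arm. Also searched were the PPAR response element (AGGTCA repeated after 1 base), the C/EBP site (spelled TTGCNNAA) and the E-box (spelled CACGTG). Among the 6 members with a promoter in the RefSeq table, only the C/EBP motif was found. Lep had 1 match, which reads the same on both strands, at bases 55 to 48 before the start. Plin1 had 2 matches, at bases 187 to 180 and 58 to 51, and the second of the Cidec promoters had 1, at bases 198 to 191. The C/EBP motif was present in 9.56% of 32851 promoters of the same length, the single glucocorticoid arm in 16.1%, the TATA box in 12.4% and the E-box in 6.02%. The full glucocorticoid element was present in 0.00913% and the PPAR element in 0.0335%.

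The QuantSeq method used reads the 3′ ends of polyadenylated RNA, so values are not scaled by length and levels are compared between groups within a gene, not between genes. Total counts ran from 11283326 to 18743702 in Cort_ATGLi, 10585234 to 22921262 in Cort_CON, 10453888 to 24034481 in EtOH_ATGLi and 12259500 to 20316002 in EtOH_CON. Levels are given as CPM, counts scaled to library size after TMM scaling. The samples carried the RNA of muscle: the 12 muscle fibre markers summed to a median of 128268 CPM in Cort_ATGLi, 136008 CPM in Cort_CON, 125042 CPM in EtOH_ATGLi and 121912 CPM in EtOH_CON. Library p41 of Cort_ATGLi (libraries carry the numbers of the sample titles) stood apart, with 85682 CPM of muscle fibre markers where the next lowest of its group had 120636 CPM, and 295 CPM of macrophage markers where the next highest had 123 CPM. It also had the highest Adipoq, Retn, Cfd, Fabp4, Plin1 and Cidec of its group, and values without it are given where they change a call. In bulk muscle, fewer fat cells and less RNA per fat cell cannot be told apart.

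Leptin RNA was higher under corticosterone on both diets. Lep (ENSMUSG00000059201, chr6:29060220-29073877, + strand, GRCm38) had 6.52 CPM in the lowest, 12.3 CPM in the median and 22.0 CPM in the highest Cort_CON library, against 1.31, 3.05 and 8.37 CPM in EtOH_CON. Of the 14 Cort_CON libraries, 14 lay above the EtOH_CON mean and 12 above the highest EtOH_CON library, p10. The mean was 12.7 ± 4.10 CPM in Cort_CON (SD, n = 14) and 3.11 ± 2.04 CPM in EtOH_CON (SD, n = 10), and the fitted difference was 4.09-fold (log2 2.03, SE 0.30, adjusted p = 2.65e-07, edgeR quasi-likelihood test, adjusted over 12592 genes).

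On the atglistatin diet Lep had 3.24, 8.34 and 17.9 CPM in the lowest, median and highest Cort_ATGLi library, against 0.338, 1.81 and 4.83 CPM in EtOH_ATGLi. All 14 Cort_ATGLi libraries lay above the EtOH_ATGLi mean and 12 above its highest library, p14. The fitted difference was 4.47-fold (log2 2.16, SE 0.31, adjusted p = 3.54e-07). The mean levels ran in the order Cort_CON, Cort_ATGLi (9.01 ± 4.55 CPM), EtOH_CON and EtOH_ATGLi (1.97 ± 1.21 CPM). Neither neighbouring pair on the same water passed the test.

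**Figure D1:**
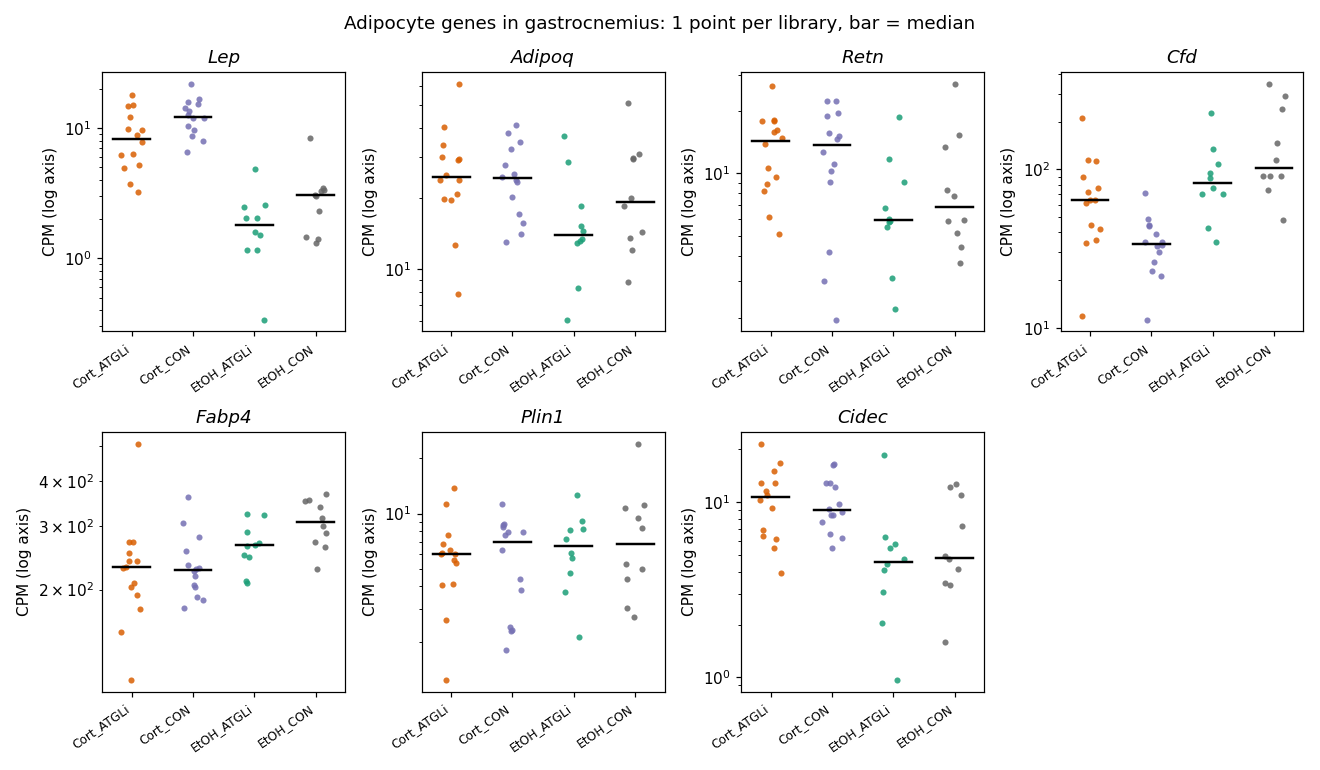
Level of each of the 7 genes in every library, in CPM on a log axis, by group, with 1 point per library and a bar at the median. Lep is higher and Cfd lower in Cort_CON than in EtOH_CON with few libraries between the groups, while the points of Adipoq, Retn and Plin1 overlap widely.

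Adipsin went the other way on the control diet. Cfd (ENSMUSG00000061780, chr10:79890853-79892655, + strand) had 11.3, 34 and 70.6 CPM in the lowest, median and highest Cort_CON library, against 48, 103 and 348 CPM in EtOH_CON. Every Cort_CON library lay below the EtOH_CON mean and 12 of 14 below its lowest library, so the groups overlapped by a few libraries. The level was 0.229 of that in EtOH_CON (log2 -2.12, SE 0.34, adjusted p = 1.68e-06).

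On the atglistatin diet Cfd had 11.9, 64.0 and 210 CPM in Cort_ATGLi, against 35.1, 82.1 and 226 CPM in EtOH_ATGLi. The groups overlapped, with 2 of 14 Cort_ATGLi libraries below the lowest of EtOH_ATGLi, and the difference did not pass the test (log2 -0.36, SE 0.33, adjusted p = 0.455). Without p41 it was -0.58 (SE 0.32, adjusted p = 0.173). The mean Cfd levels ran from EtOH_CON (154 ± 103 CPM) over EtOH_ATGLi (94.8 ± 54.8 CPM) and Cort_ATGLi (73.8 ± 48.8 CPM) to Cort_CON (35.3 ± 14.3 CPM).

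Of the other adipokines, Adipoq (ENSMUSG00000022878, chr16:23146536-23158028, + strand) had 13, 24.3 and 41.2 CPM in Cort_CON, against 8.83, 19.4 and 51.0 CPM in EtOH_CON, and the Cort_CON values fell inside the EtOH_CON range (log2 0.14, SE 0.28, adjusted p = 0.735). In Cort_ATGLi it had 7.81, 24.6 and 61.7 CPM, against 6.09, 14 and 36.8 CPM in EtOH_ATGLi. That difference was 0.69 on the log2 scale (SE 0.28) and missed the threshold (adjusted p = 0.0586). It passed when p10 or p14 of EtOH_ATGLi or p17 or p24 of Cort_ATGLi was left out, with the highest of these values at 0.90. Without p41 of Cort_ATGLi, its highest library, it fell to 0.54 (SE 0.27, adjusted p = 0.13).

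Resistin, Retn (ENSMUSG00000012705, chr8:3655770-3660110, + strand), had 1.96, 13.7 and 22.3 CPM in Cort_CON, against 3.68, 6.84 and 27.2 CPM in EtOH_CON, and the Cort_CON values ran past the EtOH_CON range at the low end only (log2 0.42, SE 0.35, adjusted p = 0.359). In Cort_ATGLi it had 5.08, 14.4 and 26.6 CPM, against 2.20, 5.96 and 18.8 CPM in EtOH_ATGLi (log2 0.85, SE 0.35, adjusted p = 0.0633). Those groups overlapped, with 1 of 14 Cort_ATGLi libraries above the highest of EtOH_ATGLi. The Retn difference on the atglistatin diet passed when p14 of EtOH_ATGLi or p24 or p25 of Cort_ATGLi was left out, the highest being 1.11, and also without p32, p33 and p34 of Cort_CON (0.84, adjusted p = 0.0327). Without p41 of Cort_ATGLi, its highest library, it fell to 0.74 (SE 0.35, adjusted p = 0.109).

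Among the genes of the fat droplet and fatty acid transport, Fabp4 (ENSMUSG00000062515, chr3:10204088-10208576, - strand) fell on the control diet, to 177, 226 and 361 CPM in the lowest, median and highest Cort_CON library, against 228, 307 and 368 CPM in EtOH_CON. Of the Cort_CON libraries, 7 of 14 lay below the lowest of EtOH_CON and 13 of 14 below its mean (log2 -0.38, SE 0.14, adjusted p = 0.0213). In Cort_ATGLi it had 112, 231 and 506 CPM, against 208, 265 and 323 CPM in EtOH_ATGLi (log2 -0.17, SE 0.14, adjusted p = 0.368). Without p41, the highest library, that value was -0.31 (SE 0.11, adjusted p = 0.0304). Since Fabp4 is shared with other cell types, their markers stand beside it: 12 endothelial markers summed to a median of 376 CPM in Cort_CON (242 to 512) and 406 CPM in EtOH_CON (376 to 442), and 12 macrophage markers to 121 CPM in Cort_CON (83.8 to 156) and 140 CPM in EtOH_CON (107 to 197). Their part in the Fabp4 difference was not tested.

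Cidec (ENSMUSG00000030278, chr6:113424634-113435760, - strand) had 3.91, 10.6 and 21.3 CPM in Cort_ATGLi, against 0.968, 4.56 and 18.5 CPM in EtOH_ATGLi, where 12 of 14 Cort_ATGLi libraries lay above the EtOH_ATGLi mean. It was 1.91-fold higher in Cort_ATGLi (log2 0.94, SE 0.32, adjusted p = 0.0231), and without p12 of EtOH_ATGLi the adjusted p was 0.0501. On the control diet it had 5.47, 8.93 and 16.4 CPM in Cort_CON, against 1.6, 4.81 and 12.6 CPM in EtOH_CON (log2 0.64, SE 0.32, adjusted p = 0.11), and 4 of 14 Cort_CON libraries lay above the highest of EtOH_CON. That difference passed with limma voom (adjusted p = 0.0228) and without p10 of EtOH_CON (adjusted p = 0.0492).

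Plin1 (ENSMUSG00000030546, chr7:79720218-79732903, - strand) had 1.79, 6.99 and 11.3 CPM in Cort_CON, against 2.72, 6.83 and 24 CPM in EtOH_CON, and 1.23, 6.01 and 13.8 CPM in Cort_ATGLi, against 2.13, 6.67 and 12.7 CPM in EtOH_ATGLi. Neither difference passed the test (log2 -0.48, SE 0.33 on the control diet and -0.11, SE 0.33 on the atglistatin diet), and the groups overlapped on both diets.

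**Figure D2:**
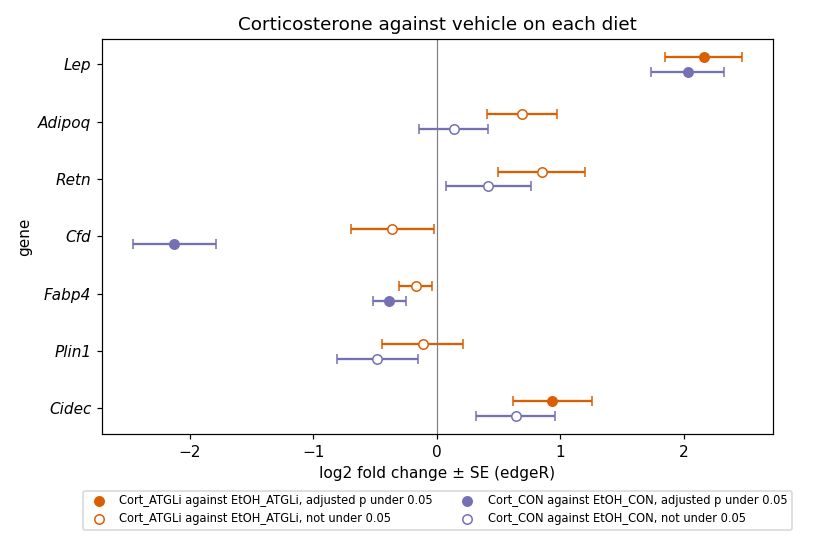
Log2 fold change with its SE for each gene, corticosterone against vehicle on the atglistatin diet (orange) and on the control diet (purple), with filled points where the adjusted p was under 0.05. Lep sits near 2 on both diets, while Cfd is at -2.12 on the control diet and -0.36 on the atglistatin diet.

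Counted together, 1 member was higher and 2 were lower in Cort_CON than in EtOH_CON, in a comparison that called 38.4% of all genes tested (18.9% higher, 19.5% lower). In Cort_ATGLi against EtOH_ATGLi 2 members were higher and 0 lower, and 30% of all genes were called (15% higher, 15% lower). These shares of 7 members lie near those of all genes. The median log2 fold change of the members was 0.14 on the control diet and 0.69 on the atglistatin diet, beside -0.00 for all genes in both comparisons. With DESeq2 the same 3 members were called on the control diet, and 4 on the atglistatin diet (Lep, Cidec, Adipoq and Retn). The shares of all genes above are those of edgeR, and the DESeq2 shares are not given here.

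In the main fit atglistatin alone moved no member past the threshold. In EtOH_ATGLi against EtOH_CON 0 of 7 passed with edgeR, DESeq2 and limma voom, 0 had an unadjusted p under 0.05 with edgeR and limma voom and 2 with DESeq2, and 0.0238% of all genes were called (0.0159% higher, 0.00794% lower). All 7 point estimates were below 0, from -0.20 for Cidec to -0.70 for Cfd (SE 0.36, adjusted p = 0.753). Without p10 of EtOH_CON the Plin1 estimate was 0.04, that of Retn -0.02 and that of Cidec -0.04. The interval of the Lep difference reached from -1.30 to 0.07. A fit on only the replicate numbers shared by both groups, with the number as a block, did call members and is given in the closing section.

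In corticosterone mice the largest atglistatin difference among the members was that of Cfd, whose values in Cort_ATGLi and Cort_CON stand above. Cfd was 1.07 higher in Cort_ATGLi on the log2 scale (SE 0.31, unadjusted p = 0.00133) and missed the threshold with edgeR (adjusted p = 0.0686) and limma voom (0.163), but passed with DESeq2 (adjusted p = 0.025), in a comparison where edgeR called 1.6% of all genes (0.667% higher, 0.929% lower). It was the only one of the 7 with an unadjusted edgeR p under 0.05. The edgeR value passed without p24 of Cort_ATGLi or p27 of Cort_CON, and was 0.86 (adjusted p = 0.146) without p41. Lep was lower in Cort_ATGLi by a point estimate of -0.49 (SE 0.24, interval -0.98 to 0.00, unadjusted p = 0.0506), with an adjusted p of 0.404.

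Whether corticosterone acted differently on the diets was asked of the interaction of both treatments. None of the 7 passed, 0 of 7 with edgeR, DESeq2 and limma voom, and 0.0397% of all genes did with edgeR. Cfd came nearest, with an interaction of 1.77 (SE 0.48, unadjusted p = 0.000613, adjusted p = 0.297) and 1.55 (adjusted p = 0.398) without p41. The interaction of Lep was 0.13 (SE 0.41, interval -0.71 to 0.96), so a difference of the leptin response between the diets within that interval was not excluded.

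Between diabetic and nondiabetic Cort_CON mice no member passed the test. Lep had 7.92, 12.5 and 22.0 CPM in the lowest, median and highest of 9 diabetic mice, against 6.52, 9.63, 12, 14.3 and 16 CPM in the 5 nondiabetic mice, which overlapped (log2 0.18, SE 0.36, adjusted p = 0.999). With edgeR, DESeq2 and limma voom 0 of 7 members passed, 0 had an unadjusted p under 0.05, and 0% of all genes were called with edgeR. Against EtOH_CON, the 5 nondiabetic Cort_CON mice alone gave 1.91 for Lep (SE 0.38, adjusted p = 2.26e-04) and -2.04 for Cfd (SE 0.51, adjusted p = 0.00291).

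Within groups the members rose and dropped together from mouse to mouse. With each group's mean taken off the log2 CPM, Adipoq correlated over 48 libraries with Plin1 (Pearson r = 0.85, Spearman rho = 0.86), Cfd (r = 0.84, rho = 0.80), Cidec (r = 0.83, rho = 0.81), Retn (r = 0.81, rho = 0.88), Lep (r = 0.69, rho = 0.62) and Fabp4 (r = 0.51, rho = 0.52). For Plin1, Cfd, Cidec and Retn the permutation p of r and rho, permuted within groups, was 1e-05, the smallest that 100000 resamples can give, and for Fabp4 that of r was 4.6e-04 (adjusted over the 6 relations, 4.6e-04). For Lep the p of r was 1e-05 and of rho 2e-05. Without the libraries farthest from the median, p24 and p41 of Cort_ATGLi, r ran from 0.45 for Fabp4 to 0.81 for Retn, Plin1 and Cidec. Within Cort_CON every r was the lowest of the 4 groups, from 0.25 for Fabp4 to 0.71 for Plin1. The points share the scaling of their library.

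The vehicle groups each had 1 library that was high for most members. Library p10 of EtOH_CON had the highest Lep, Adipoq, Retn, Cfd, Plin1 and Cidec of its group, and p14 of EtOH_ATGLi the highest of the same 6 genes in its own. By the same measure over 12591 other genes, those most like Adipoq were Cdo1 (r = 0.91), Plin1, Ifi27l2a (r = 0.84), Cfd and Prkar2b (r = 0.83). Those most like Lep were Prkar2b (r = 0.72), Adipoq, Cidec (r = 0.65), Nnat (r = 0.62) and Tmem45b (r = 0.61). Prkar2b encodes a regulatory subunit of protein kinase A, Cdo1 the cysteine dioxygenase that makes taurine precursors, and Nnat is the imprinted gene neuronatin. Fabp4 stood at rank 87 of the genes most like Adipoq.

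Ratios to Adipoq in the same library take off what the members share. These ratios were chosen after the values were seen. Lep per Adipoq was 0.329, 0.487 and 0.982 in the lowest, median and highest Cort_CON library, against 0.0462, 0.163 and 0.213 in EtOH_CON. Cfd per Adipoq was 0.715, 1.31 and 2.46 in Cort_CON, against 4.53, 6.41 and 9.47 in EtOH_CON. Neither ratio overlapped between the groups, Lep with all 14 Cort_CON libraries higher and Cfd with all 14 lower, where 0.755% of 12591 genes had a ratio to Adipoq with no overlap. The other 4 members overlapped.

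On the atglistatin diet Lep per Adipoq was 0.136, 0.373 and 0.527 in Cort_ATGLi, against 0.0531, 0.132 and 0.178 in EtOH_ATGLi, with 12 of 14 Cort_ATGLi libraries above all of EtOH_ATGLi. Cfd per Adipoq was 1.12, 2.55 and 4.8 in Cort_ATGLi, against 4.21, 5.76 and 7.03 in EtOH_ATGLi, with 13 of 14 Cort_ATGLi libraries below all of EtOH_ATGLi. Every member ratio overlapped between these groups, in a comparison where 0.342% of the 12591 genes had a ratio with no overlap. Plin1 per Adipoq lay below all of EtOH_ATGLi in 10 of 14 Cort_ATGLi libraries. Adipoq, the divisor of these ratios, was itself higher in Cort_ATGLi by a point estimate of 0.69 on the log2 scale (SE 0.28).

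The same question was put to the edgeR fit with the mean log2 CPM of Adipoq, Cidec and Plin1 as a covariate. In Cort_CON against EtOH_CON it gave Lep 1.98 (SE 0.21, adjusted p = 1.02e-10), Cfd -2.11 (SE 0.18, adjusted p = 2.61e-13) and Fabp4 -0.43 (SE 0.12, adjusted p = 0.00204). In Cort_ATGLi against EtOH_ATGLi it gave Lep 1.83 (SE 0.23, adjusted p = 1.52e-08), Cfd -0.90 (SE 0.18, adjusted p = 1.59e-04) and Fabp4 -0.34 (SE 0.12, adjusted p = 0.0284), so that Cfd and Fabp4 also passed on that diet. With this covariate the Cfd difference of Cort_ATGLi against Cort_CON (0.88, SE 0.17, adjusted p = 0.0014) and its interaction (1.21, SE 0.26, adjusted p = 0.0466) passed too. The covariate holds genes that treatment may itself change. On the atglistatin diet Cidec was itself called higher (log2 0.94, SE 0.32, adjusted p = 0.0231), with Adipoq at 0.69 (SE 0.28) and Plin1 at -0.11 (SE 0.33). Their part in the calls gained with the covariate was not tested. The share of all genes called with the covariate is not given here.

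**Figure D3:**
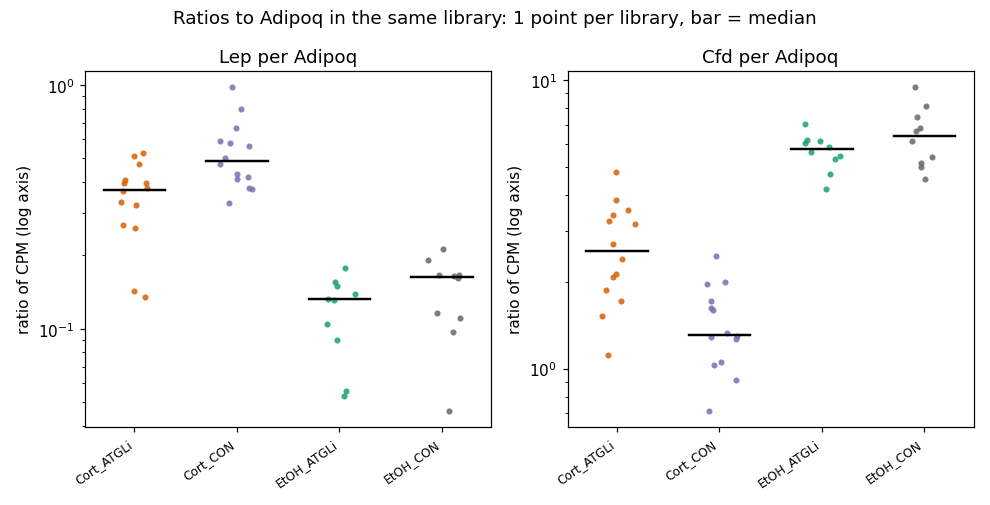
Lep and Cfd CPM divided by Adipoq CPM of the same library, on log axes, by group, with 1 point per library and a bar at the median. All 14 Cort_CON libraries lie above EtOH_CON for Lep (from 0.329, against up to 0.213) and below it for Cfd (up to 2.46, against from 4.53), and Cort_ATGLi lies between Cort_CON and the vehicle groups by its median.

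Leptin was next set against the insulin label within groups. Insulin had a median of 13.8 in Cort_ATGLi (2.19 to 36.0), 37.8 in Cort_CON (9.31 to 39.8), 1.03 in EtOH_ATGLi (0.464 to 2.05) and 2.39 in EtOH_CON (1.19 to 3.46). Groups on the same water overlapped, while most corticosterone mice lay far above the vehicle mice. No relation across the groups was computed. In the 4-group fit with a slope on log2 insulin per group, the Lep slope, the log2 change of Lep per unit of log2 insulin, was 0.17 (SE 0.15) in Cort_ATGLi, 0.01 (SE 0.26) in Cort_CON, -0.27 (SE 0.37) in EtOH_ATGLi and 0.63 (SE 0.57) in EtOH_CON. None passed, with the smallest adjusted p at 0.745. Single libraries moved these slopes: it was 0.86 (SE 0.55) in EtOH_ATGLi without p14, 0.05 (SE 0.78) in EtOH_CON without p15, and 0.32 (SE 0.22) in Cort_ATGLi without p41. In Cort_CON it ran from -0.13 without p32 to 0.26 without p33, and was 1.38 (SE 1.19) without p32, p33 and p34. The slopes of Cort_ATGLi and Cort_CON differed by 0.16 (SE 0.30, adjusted p = 0.893).

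As correlations of log2 CPM with log2 insulin, Lep gave Pearson r = 0.21 and Spearman rho = 0.29 in the 14 Cort_ATGLi mice (permutation p = 0.48 and 0.32), r = 0.04 and rho = 0.32 in EtOH_ATGLi (p = 0.92 and 0.37, permutation test) and r = 0.27 and rho = -0.02 in EtOH_CON (p = 0.44 and 0.97, permutation test), with adjusted p of 0.74 or more over the 4 groups. Without the 2 mice farthest from the median insulin, r was 0.21, 0.62 and -0.12 in that order of groups (for EtOH_ATGLi, without p06 and p14, exact permutation p = 0.11, and rho 0.74 with exact p = 0.046). In Cort_CON insulin fell into clusters, with 9 mice above 36, p49 and p45 at 27.7 and 29.3, and p33, p32 and p34 at 9.31, 14.5 and 16.8. Over all 14 Cort_CON mice r was 0.06 and rho 0.12 (permutation p = 0.84 and 0.69). In the 9 mice above 36 r was 0.05 and rho 0.07 (exact permutation p = 0.89 and 0.88). Without p32, p33 and p34, a choice made after seeing the data, r was 0.54 and rho 0.40 (permutation p = 0.1 and 0.22).

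Taken relative to the other fat cell genes, Lep was higher at higher insulin in Cort_ATGLi, a relation computed with earlier results known. Lep itself had a slope of 0.17 (SE 0.15) there. The genes it is set against had negative slopes: Adipoq -0.25 (SE 0.14), Plin1 -0.24 (SE 0.16) and Cidec -0.19 (SE 0.16). None of these slopes passed, and both sides enter the relation. Without p41 the slopes were 0.32 for Lep, -0.04 for Adipoq, -0.04 for Plin1 and 0.01 for Cidec. Lep per Adipoq was 0.143 and 0.136 in p41 and p48, the mice with the lowest insulin (2.19 and 5.67), and 0.511 in p39, the mouse with the highest (36.0). Lep log2 CPM minus the mean log2 CPM of Adipoq, Cidec and Plin1 gave r = 0.79 and rho = 0.76 (permutation p = 4.1e-04 and 0.002; adjusted over the 4 groups, 0.0016 and 0.008). Without p41 and p39, farthest from the median insulin, r was 0.62 (permutation p = 0.011). Without p41 and p48 r was 0.58 (permutation p = 0.053) and rho 0.63 (permutation p = 0.033), so the relation leans in part on those 2 mice. In EtOH_ATGLi r was 0.28 (permutation p = 0.43) and in EtOH_CON 0.20 (permutation p = 0.55). In Cort_CON it was -0.63 (permutation p = 0.015, adjusted 0.03; rho = -0.38, p = 0.18), which rested on p32, p33 and p34, since without them r was 0.29 (permutation p = 0.42). The difference between the Cort_ATGLi and Cort_CON relations was not tested.

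In Cort_CON, Retn was the member with a called slope on insulin. In p32, p33 and p34, the mice with the lowest insulin, Retn was at 1.96, 3.0 and 4.18 CPM, while the other 11 Cort_CON mice had 9.09 to 22.3 CPM. The 3 mice stood apart from all other Cort_CON mice, and they carry consecutive numbers, whose meaning the labels do not give. The Retn slope was 1.45 (SE 0.36, adjusted p = 0.0159), 1 of 7 members in a fit that called 2.68% of all genes (1.15% with a positive and 1.52% with a negative slope). It was 0.92 (SE 1.26, adjusted p = 0.811) without the 3 mice, lost its call when any 1 of them was left out, and missed the threshold with limma voom. Plin1 was low in the same mice, at 1.79, 2.29 and 2.32 CPM against 2.41 to 11.3 CPM in the other 11, with a slope of 1.01 (SE 0.36, adjusted p = 0.155). Lep was split among these mice: p33 and p34 had 16 and 16.9 CPM, above the Cort_CON median, while p32 had 6.52 CPM, the lowest of the group.

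In Cort_ATGLi the Retn slope was -0.15 (SE 0.15, adjusted p = 0.769), and the slopes of Cort_ATGLi and Cort_CON differed by -1.60 (SE 0.38, adjusted p = 0.0186, with 1.68% of all genes called, 1.06% positive and 0.627% negative). That difference lost its call without p41 of Cort_ATGLi or p32, p33 or p34 of Cort_CON, and missed the threshold with limma voom. Fabp4 was the 1 of 7 members with a called slope in Cort_ATGLi, at -0.23 (SE 0.06, adjusted p = 0.0492, in a fit that called 1.15% of all genes, 0.0476% with a positive and 1.1% with a negative slope). Without p41, which has the lowest insulin and the highest macrophage sum of its group, it was -0.05 (SE 0.08, adjusted p = 1). In the fit with p41, 7 of 12 macrophage markers also had called negative slopes (median of the 12 -0.29), among them Cd68 at -0.62 (SE 0.12, adjusted p = 0.00151) and C1qb at -0.33 (SE 0.07, adjusted p = 0.006), and 0 of 12 endothelial markers did. Their part in the Fabp4 slope was not tested. In EtOH_ATGLi and EtOH_CON 0 of 7 slopes passed with edgeR and limma voom, 0 had an unadjusted p under 0.05 with either tool, and 0% of all genes were called with edgeR.

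**Figure D4:**
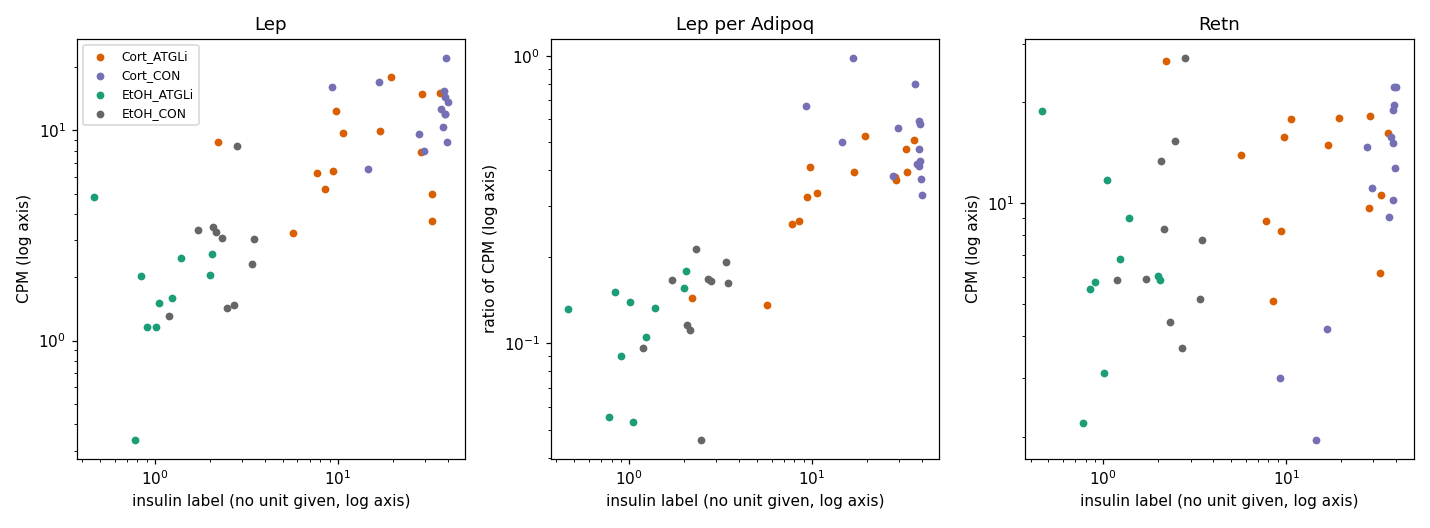
Lep level, Lep per Adipoq and Retn level against the insulin label (no unit given), all on log axes, with 1 point per mouse coloured by group. Within Cort_ATGLi (orange) Lep per Adipoq is lowest in the 2 mice with the lowest insulin, and within Cort_CON (purple) the 3 mice with insulin of 9.31 to 16.8 have the lowest Retn.

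Of the 8 other genes of the adipocyte list, 2 were higher and 1 lower in Cort_CON than in EtOH_CON, and 0 were called in Cort_ATGLi against EtOH_ATGLi. The shares of all genes called were 38.4% and 30%, in that order. Thrsp, a regulator of fat synthesis that muscle also expresses, was higher in Cort_CON (log2 0.87, SE 0.26, adjusted p = 0.0058), as was Lipe, hormone-sensitive lipase (log2 0.37, SE 0.14, adjusted p = 0.0276). Adrb3, the beta-3 adrenergic receptor of fat cells, was lower (log2 -2.05, SE 0.68, adjusted p = 0.0139) at a mean of 0.252 ± 0.188 CPM in Cort_CON and 1.05 ± 1.06 CPM in EtOH_CON. In Cort_ATGLi against Cort_CON 0 of the 8 were higher and 1 was lower, Thrsp (log2 -0.93, SE 0.23, adjusted p = 0.0246). That comparison called 0.667% of all genes higher and 0.929% lower. The 8 genes summed to a median of 330 CPM in Cort_ATGLi (238 to 394), 409 CPM in Cort_CON (249 to 496), 357 CPM in EtOH_ATGLi (274 to 377) and 354 CPM in EtOH_CON (339 to 400). This sum did not follow the members in every library: within Cort_ATGLi it was lowest in p41, which had the highest Adipoq. Thrsp and Lipe made up a small part of it, with means of 36.2 and 20.8 CPM in Cort_CON. It is therefore no measure of fat cell RNA. Of 3 brown fat markers tested, 1 was higher and 0 lower on each diet (median log2 0.05 on the atglistatin diet and 0.04 on the control diet), and Ucp1 and Elovl3 were not analysed here. The called marker was Cidea (log2 1.11, SE 0.32, adjusted p = 0.00528 in Cort_ATGLi and 0.96, SE 0.30, adjusted p = 0.0093 in Cort_CON), while Cox8b had 0.05 (SE 0.09) in Cort_ATGLi and -0.09 (SE 0.09) in Cort_CON, and Ppargc1a 0.04 (SE 0.11) in both.

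Of 15 adipogenic regulators 9 were higher and 3 lower in Cort_CON than in EtOH_CON (median log2 0.26), and 7 higher and 2 lower in Cort_ATGLi than in EtOH_ATGLi (median 0.18). Those comparisons called 38.4% and 30% of all genes tested, in that order. Pparg and Cebpa, also on the list, had mean levels of 2.059 and 3.765 CPM in Cort_CON, against 2.125 and 3.811 CPM in EtOH_CON. On the atglistatin diet they had 2.61 and 3.849 CPM in Cort_ATGLi, against 2.264 and 3.44 CPM in EtOH_ATGLi. Fkbp5, a glucocorticoid receptor co-chaperone and a common glucocorticoid target, was higher by 2.47 (SE 0.15, adjusted p = 5.16e-18) in Cort_ATGLi and by 3.53 (SE 0.16, adjusted p = 3.92e-23) in Cort_CON, on the log2 scale. Nr1h3, the liver X receptor alpha, was higher by 0.90 (SE 0.10, adjusted p = 2.2e-10) in Cort_ATGLi and by 1.21 (SE 0.10, adjusted p = 7.98e-15) in Cort_CON, and Ebf1, an early factor of the fat lineage, was lower by point estimates of -0.39 and -0.41 (SE 0.12 each, adjusted p = 0.0132 and 0.00656). Of 38 genes of lipid storage and lipolysis 18 were higher and 6 lower on the control diet, and 11 higher and 3 lower on the atglistatin diet. In Cort_ATGLi against Cort_CON 0 of the 38 were higher and 6 lower, beside 0.667% of all genes higher and 0.929% lower. This list shares Thrsp, Lipe, Adrb3, Cidea and other genes with the adipocyte, brown fat and endothelial lists, so these genes are counted more than once. Plin4, a droplet coat protein also made by muscle, was 1.5 higher in Cort_ATGLi (SE 0.11, adjusted p = 1.31e-16) and 2.17 higher in Cort_CON (SE 0.11, adjusted p = 6.91e-23), on the log2 scale.

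Of 27 other adipokines and adipokine receptors, 8 were higher and 12 lower in Cort_CON than in EtOH_CON, and 8 higher and 8 lower in Cort_ATGLi than in EtOH_ATGLi. Beside these counts, 38.4% and 30% of all genes were called. Lcn2, the secreted lipocalin 2, was higher by 6.13 (SE 0.40, adjusted p = 2.94e-16) in Cort_ATGLi and 6.43 (SE 0.40, adjusted p = 1.8e-17) in Cort_CON. Aplnr, the apelin receptor, fell by 3.41 (SE 0.53, adjusted p = 9.15e-07) in Cort_ATGLi and by 4.59 (SE 0.54, adjusted p = 4.8e-10) in Cort_CON, at levels of at most 0.877 CPM in Cort_ATGLi, 0.219 CPM in Cort_CON, 2.71 CPM in EtOH_ATGLi and 3.94 CPM in EtOH_CON.

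Markers of other cells were counted in the same contrasts. On the control diet 38.4% of all genes were called (18.9% higher, 19.5% lower), and on the atglistatin diet 30% (15% higher, 15% lower). A count near these shares is no particular result for its list. Of 12 markers of fibro-adipogenic progenitors, the cells of muscle that can become fat cells, 0 were higher and 11 lower on each diet, with a summed median of 1175 CPM in Cort_ATGLi (1039 to 1339) against 1766 CPM in EtOH_ATGLi (1426 to 2447), and 1195 CPM in Cort_CON (876 to 1744) against 2045 CPM in EtOH_CON (1891 to 2623). Endothelial markers had 2 higher and 5 lower in Cort_ATGLi and 2 higher and 7 lower in Cort_CON of 12, and macrophage markers 1 higher and 4 lower in Cort_ATGLi and 1 higher and 6 lower in Cort_CON of 12. Of 5 erythroid markers 1 was higher in Cort_ATGLi and 4 in Cort_CON, and of 7 Schwann cell markers 0 passed in Cort_ATGLi and 3 were lower in Cort_CON. The 12 muscle fibre markers had 6 higher and 1 lower on each diet. Their part in the Lep and Cfd differences was not tested.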

How the data were processed

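The authors deposited raw counts per gene, whole numbers from 50 bp forward QuantSeq reads per the labels' protocols. The submitters' processing notes name GRCm38, R 3.6.1 and DESeq2 1.24.0. Aligner, counter, strand setting and annotation: not given in the sources used here. All deposited counts were even in 47 of 48 libraries, while p13 of EtOH_ATGLi had 49.6% odd counts and the highest total count, 24034481. The deposited normalized table was not used. A total of 14094 identifiers matched a symbol, and coordinates are those of the GRCm38 annotation.

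Genes were filtered with filterByExpr (minimum count 10, total 15), which left 12592 of 14125, and tested with edgeR 4.0.16's quasi-likelihood test (TMM, robust, two-sided, Benjamini-Hochberg over all genes, threshold 0.05) in R 4.3.3, in 1 fit of the 48 libraries. A 5-group fit split Cort_CON by disease state, and another held 4 slopes on log2 insulin. Log2 CPM had a prior count of 2. Correlations used 100000 resamples, or all orders under 10 values. Alternatives were DESeq2 1.42.0, limma 3.58.1 voom, no filter, halved counts, fewer groups, a fat cell covariate, the replicate numbers as a block and left-out libraries. The fits were tested on simulated data. The labels do not say that libraries are separate mice, so p-values measure the spread between libraries.

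The members, lists and ratios were chosen with earlier results of these data known. Beside the 7 members, genes of the other lists were named from the 2 with the smallest p per list and direction (for the 3 brown fat markers, all), and the 5 genes most like Lep and Adipoq. Pparg and Cebpa were named in addition, by their levels only.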

Additional observations from a re-analysis of the deposited data

Results flagged for a closer look

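Lep in library p10 of EtOH_CON stood far above the other 9, at 3.09 log2 CPM (8.37 CPM), and Lep per Adipoq in p09 of EtOH_CON far below them, at -4.44 on the log2 scale. Of 34 groups looked at for such a gap, chance gives about 1 in 20. The Lep difference of Cort_CON against EtOH_CON ran from 1.93 to 2.34 with any 1 library left out and passed the threshold each time.

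The slope of Retn on insulin differed between Cort_ATGLi and Cort_CON by -1.60 on the log2 scale, which passed the test of the difference itself. Without p32, p33 and p34 of Cort_CON it was -1.07 (SE 1.27, adjusted p = 0.814).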

How the results depend on the processing

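Of 454 member values under the alternatives, 425 kept their direction and their side of the threshold, or passed in neither fit, 12 lost a call, 17 gained one and 0 reversed. Among values that passed nowhere, 78 of 1904 changed sign. With 1 library left out, 14 of 1610 values lost a call and 13 gained one. The calls of Lep and Cfd on the control diet and of Lep on the atglistatin diet held in all of these. DESeq2 called 4 members in Cort_ATGLi against EtOH_ATGLi and 1 in Cort_ATGLi against Cort_CON. The shares of all genes called under the alternatives, or with 1 library left out, are not given here, so these counts have no background beside them. For the insulin slopes limma voom called 0 members in Cort_CON and 0 in Cort_ATGLi, and in Cort_ATGLi no filter and linear insulin each called 0. Without p32, p33 and p34 of Cort_CON, a choice made after seeing the data, 0 were called in either group, the slope difference of Lep was -1.21 (adjusted p = 0.764), and Fabp4 on the control diet lost its call (-0.33, adjusted p = 0.0676). With 1 library left out, called members ran from 1 to 4 in Cort_ATGLi against EtOH_ATGLi (1 without p12, 4 without p14 of EtOH_ATGLi or p24 of Cort_ATGLi), from 0 to 1 in Cort_ATGLi against Cort_CON, from 0 to 1 for the slope in Cort_CON and from 0 to 2 for that in Cort_ATGLi, and r of Lep with insulin ran from -0.25 to 0.68 in EtOH_ATGLi (highest without p14).

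The r of Lep relative to the fat cell genes with insulin was 0.79 in Cort_ATGLi and -0.63 in Cort_CON, where plain Lep gave 0.21 and 0.06. In Cort_ATGLi it was 0.85 relative to Adipoq alone, 0.68 without p41 and 0.62 without the 2 farthest mice. The cause of these moves was not tested.

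Over all genes, libraries of different groups with the same replicate number were hardly correlated (r from -0.06 to 0.15). Among p09 to p12, though, Adipoq was highest in p10 and lowest in p12 of both vehicle groups. It had 51.0 and 18.6 CPM there in EtOH_CON, and 28.5 and 6.09 CPM in EtOH_ATGLi. With the number as a replicate block, 6 members were called in EtOH_ATGLi against EtOH_CON on the 4 shared numbers, and 0 of 7 in the same libraries with no block. In Cort_ATGLi against EtOH_ATGLi, on 2 shared numbers, 2 were called with the block (Lep and Cfd) and 1 without it. The share of all genes called with the block is not given here, so these counts have no background beside them. Depth was low for Lep, at 4 to 402 counts per library, and for Plin1, at 12 to 396. These are counts as deposited, even in 47 of 48 libraries, so the number of reads behind them is not known. Intervals cover the counting error of the deposited counts and the spread between these libraries only.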
